A study of Mus musculus with 6 samples.

Results

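The genes described here encode the soluble machinery that carries proteins and RNA through the nuclear pore, namely the importins, the exportins and the proteins of the Ran cycle. They were selected by gene symbol among the protein-coding genes of GENCODE vM21, and 42 of the 52550 listed genes were members. All members were found in the count files of every library. The hippocampus was taken from male C57BL / 6 mice (C57B6/J in the study's methods) of 8–10 weeks, 24 h after a controlled cortical impact of moderate severity over the right parietal bone (TBI, 3 mice) or after the same anesthesia and craniotomy without the impact (sham, 3 mice). The methods describe exposing the hippocampus on both sides and do not state which side entered each library. The study's introduction speaks of whole hippocampal tissue, without naming a side. There was 1 library per mouse, and the libraries are called Sham1 to Sham3 and TBI1 to TBI3. The comparison asks which of these genes differed between the injured and the sham hippocampus.

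In nuclear transport, an importin binds its cargo in the cytoplasm and lets go of it in the nucleus, where it meets the small GTPase Ran in the GTP form. Exportins work the other way round and hold their cargo only together with Ran-GTP. The direction is set by the exchange factor Rcc1, which sits on chromatin and loads Ran with GTP, and by Rangap1 at the cytoplasmic face of the pore, which makes Ran hydrolyze it. In neurons, importins also travel in axons and dendrites and bring signals from distant sites, such as an injured axon, back to the nucleus.

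The estimated counts summed to between 31630936 and 41771872 per library, and each level below is a CPM value, that is, the count relative to the TMM-scaled total of its library. Members took 0.306% to 0.382% of all counts, with the highest share in Sham2. Some libraries stood apart in marker genes of brain regions and cell types. The 8 striatal markers summed to 3808 CPM in TBI1 and to 133 to 192 CPM in the other libraries. Of the 6 astrocyte markers, Gfap had 4050 CPM in Sham2 and 541 to 1480 CPM elsewhere, and Aqp4 was also highest there with 401 CPM against 170 to 381 CPM. Aldh1l1, with 84.9 CPM in Sham2, was within its range of 63.8 to 108 CPM elsewhere, whereas S100b (92.4 CPM), Gja1 (99.2 CPM) and Slc1a3 (599 CPM) were at their lowest in Sham2. The 6 oligodendrocyte markers summed to 2862 CPM in Sham2 and to 8537 to 10490 CPM elsewhere. The 6 choroid plexus and ependymal markers summed to 59.4 CPM in Sham2, 256 CPM in TBI1 and 265 CPM in TBI3, against 2029 to 2351 CPM in the others. Most of that sum was Ttr in all libraries except Sham2, and in TBI1 Foxj1 (19.1 CPM) and Clic6 (22.7 CPM) lay within their range elsewhere. The 7 microglia and macrophage markers summed to 417 CPM in TBI1 and to 198 to 274 CPM elsewhere, and the 6 interneuron markers to 1361 CPM in TBI1, 1138 CPM in TBI3 and 721 to 853 CPM in the others. In TBI1 Gad1 (523 CPM), Gad2 (518 CPM) and Lhx6 (16.9 CPM) were at their highest, and Pvalb, Sst and Vip lay within their range elsewhere. In TBI3 Pvalb had 471 CPM against 38.5 to 98 CPM elsewhere, and Gad1 and Gad2 were highest after TBI1. Sst (103 CPM), Vip (8.88 CPM) and Lhx6 (6.74 CPM) were at their lowest in TBI3. The 6 thalamic markers summed to 803 CPM in TBI3, 456 CPM in Sham3 and 392 CPM in TBI2, and to 111 to 194 CPM in the others. The 7 blood markers summed to 609 CPM in TBI2 and to 119 to 430 CPM elsewhere. The 12 markers of hippocampal pyramidal and granule neurons summed to 4882 to 6846 CPM in sham and to 3234 to 4667 CPM in TBI. Of these, 11 were lower in TBI by fold change, and in 5 every TBI library lay below every sham library, against 5.45% of all genes tested. Camk2a, the largest part of each sum, overlapped between groups, with 2230 CPM in Sham2 and 2680 CPM in TBI2. Wfs1 went the other way, with its highest level, 276 CPM, in TBI1. No marker of the 12 lists was at 0 in all libraries. The part of these markers in the values of single libraries given below was not tested. In bulk tissue, fewer cells of a type and less RNA per cell cannot be told apart.

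The measured differences of the transport genes between TBI and sham were small, and none passed the test. Of the 42 members, 38 passed the filter on low counts, and 0 were called by edgeR's quasi-likelihood test, where a call needed p under 0.05, a fold change beyond 1.5 either way and, after adjustment over all genes, p under 0.1. The same rule called 0% of the 18795 genes tested. An unadjusted p under 0.05 was reached by 0 of the 38 members, where 4.29% of all genes reached it (2.16% higher and 2.13% lower in TBI), and the smallest was 0.0677. With DESeq2's defaults 0 members were called, against 0.221% of its genes, and 0 members had an unadjusted p under 0.05, against 4.11%. The log2 fold changes, positive where TBI is higher, ran from -0.31 for Ipo5 to 0.32 for Nxt2, with a median of -0.079 against 0.0091 over all genes tested.

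How large a change could have been missed is shown by the 95% intervals of the log2 fold changes. In 28 of the 38 members the whole interval lay within 1.5-fold either way, so that a larger change than that lay outside the interval. This was so in 30% of all genes tested and in 45.3% of the 11142 genes whose mean level lay within the members' own range of 6.3 to 216 CPM. The other 10 members had intervals that reached beyond 1.5-fold in at least 1 direction. They were Kpna1, Ipo5, Xpo1, Xpo5, Ranbp17, Nutf2, Rangrf, Rcc1, Nxt1 and Nxt2. The spread between mice of a group was small as well, with a median SD of 0.16 on the log2 CPM scale among the members, 0.23 among genes of the same range and 0.28 among all genes tested.

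**Figure D1:**
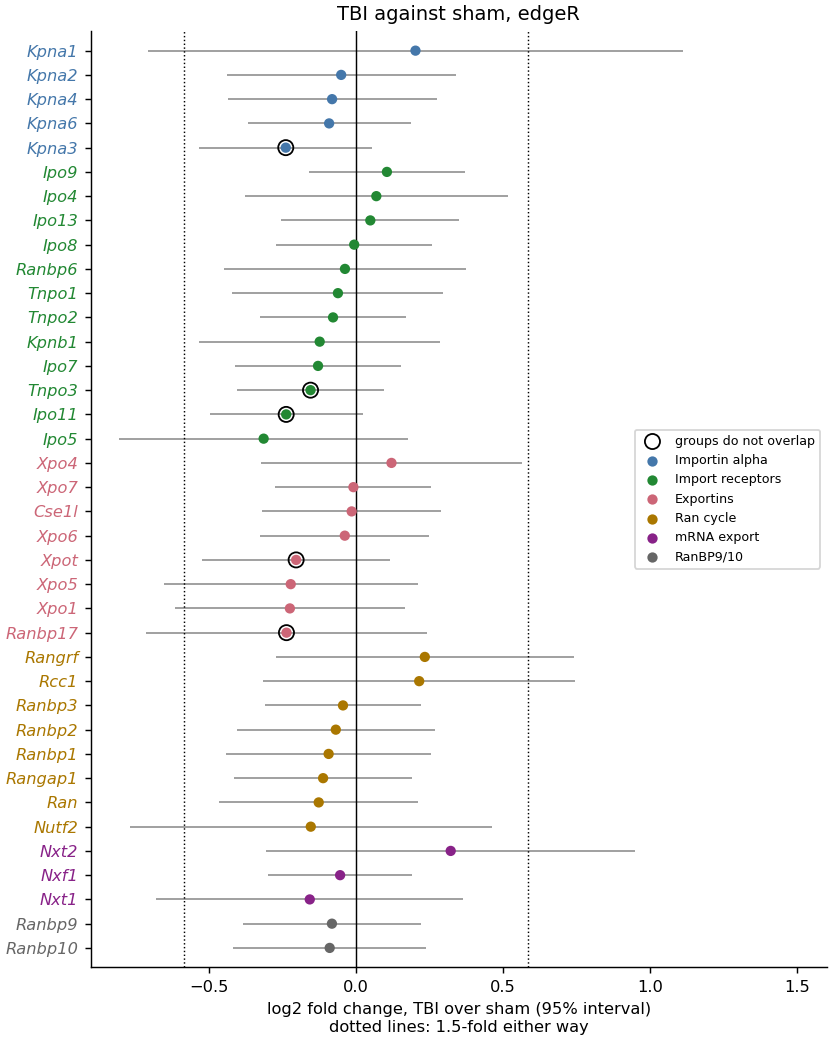
Log2 fold change of TBI over sham for the 38 tested members, grouped by role, with 95% intervals from edgeR. The horizontal axis is the log2 fold change, the dotted lines mark 1.5-fold either way, and black circles mark the 5 members whose sham and TBI libraries did not overlap, all of them left of 0.

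Below this small overall difference lay a tilt in sign. The fold change was below 0 in 30 of 38 members and above 0 in 8. Over all genes tested 48.6% were below and 51.4% above, and of the genes within the members' range 49.6% were below. Sham2 was the highest library for 20 of the 38 members, where it was the highest for 25.9% of genes of the same range. Without Sham2, 20 members were lower and 18 higher in TBI, and the median log2 fold change was -0.013. With any other single library left out, more members were lower than higher, with 31 lower without Sham1, 29 without Sham3, 30 without TBI1, 28 without TBI2 and 26 without TBI3. Without Sham2 and TBI1 together, a choice made after their marker levels were seen, 21 were lower and 17 higher. The part of the tissue makeup of Sham2 in these values was not tested.

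**Figure D2:**
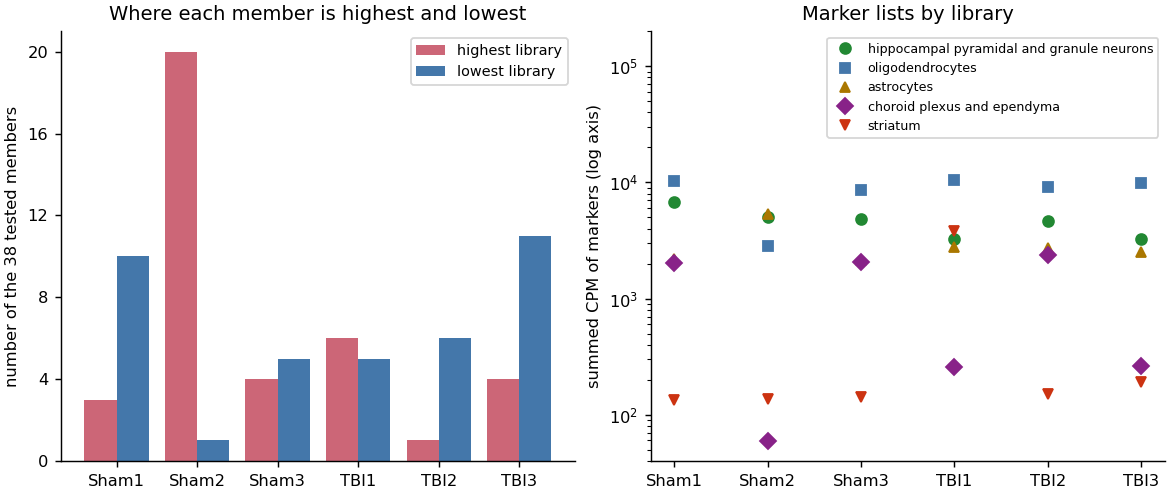
Left, number of the 38 tested members (vertical axis) whose CPM was highest or lowest in each library, with 20 highest in Sham2. Right, summed CPM of 5 marker lists in each library on a log axis, where the striatal list stands at 3808 CPM in TBI1 and the oligodendrocyte list at 2862 CPM in Sham2. Of the astrocyte sum of 5331 CPM in Sham2, Gfap alone held 4050 CPM.

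In 5 members every TBI library lay below every sham library, and in 0 members every TBI library lay above. They were Kpna3, Ipo11, Tnpo3, Xpot and Ranbp17. Among all genes tested 10.2% were apart, 5.45% below in this way and 4.77% above, and 5.91% of the genes within the members' range lay below. With libraries scaled by their totals alone, 3 of the 5 stayed apart, namely Ipo11, Ranbp17 and Tnpo3. With RLE size factors, and with a filter of at least 10 counts in every library, Ipo9 also lay apart, above sham. The count above sham depended on the libraries included. Without Sham2, 7 members lay below and 4 above (Ipo9, Kpna4, Rangrf and Rcc1), against 10.4% and 10.1% of all genes. Without TBI1, 6 lay below and 3 above (Ipo9, Nxt2 and Ranbp6), against 11.3% and 11.4%. Without both, 8 lay below and 9 above, against 18.6% and 18.5%. Of the 5 members named first, 1 was an importin alpha (of 5 tested), 2 were import receptors (of 12) and 2 exportins (of 8). None was among the 8 of the Ran cycle or the 3 tested mRNA export receptors. These counts are too small to tell the roles apart, and a difference between roles was not tested. Without Sham2, the mRNA export receptor Nxf1 also lay below.

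Importins alpha are adaptors that recognize the classical nuclear localization signal and hand the cargo to importin beta. Of 6 members, 5 were tested, 1 above and 4 below sham in the mean, and 0 reached an unadjusted p under 0.05. Kpna3 had the highest level for its length in this family, 27.3 CPM per kb of exons over the 6 libraries. It lies on the minus strand of chromosome 14 of GRCm38 from 61365211 to 61439874, with 2 annotated transcripts (ENSMUSG00000021929.9). Kpna3 had 123, 135 and 123 CPM in Sham1 to Sham3 and 104, 121 and 97.7 CPM in TBI1 to TBI3. The groups were apart, although TBI2 came within 2 CPM of the lowest sham library. The means were 127 ± 6.69 CPM and 108 ± 12.4 CPM (SD, n = 3 mice each), a log2 fold change of -0.24 (standard error 0.123, adjusted p 0.982 from edgeR's test) that did not pass. Without TBI2 the log2 fold change was -0.34, and Kpna3 was then the only member with an unadjusted p under 0.05 in the edgeR fit.

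Kpna1 had the widest spread of all tested members, and is named here because of its values. It had 144 and 183 CPM in Sham1 and Sham2 but 59.4 CPM in Sham3, and 169, 141 and 134 CPM in TBI1 to TBI3. The low library was a single sham mouse, and the other 5 lay between 134 and 183 CPM. Its share of the importin alpha level per length was 9.35% in Sham3 and 19.4% to 24.9% elsewhere. Its log2 fold change was 0.20 (95% interval -0.71 to 1.11), and it was -0.15 without Sham3.

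The other tested importins alpha had sham and TBI means close to each other. Kpna6 was at 105 ± 4.52 CPM in sham and 98.3 ± 9.51 CPM after TBI (SD, n = 3 each), and Kpna4 at 113 ± 20.2 CPM and 106 ± 4.03 CPM. Kpna2, the member best known from dividing cells, had 27.8 to 37.5 CPM in sham and 28.2 to 34.9 CPM in TBI. Its value is uncertain, since 61.6% of the stretches of 50 bases in its transcripts also occur in those of Gm10184, although that gene held only 23 to 48 counts per library. Kpna7, known from oocytes and early embryos, had 0 to 3 counts per library and was not tested.

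Import receptors of the importin beta family bind the pore, Ran and either an importin alpha or the cargo itself. All 12 were tested, 3 above and 9 below sham in the mean, and none reached an unadjusted p under 0.05. Together they had 1360 ± 133 CPM in sham and 1280 ± 50.3 CPM after TBI (SD, n = 3 each). Sham2 alone had 1518 CPM, and the other sham libraries, with 1279 and 1297 CPM, lay within the range of TBI. Kpnb1, importin beta itself, was the most abundant for its length with 32.8 CPM per kb. It had 199, 273 and 204 CPM in sham and 240, 185 and 196 CPM in TBI. The groups overlapped, with Sham2 and TBI1 as the high libraries, and the log2 fold change was -0.12 (95% interval -0.53 to 0.29). It was 0.037 without Sham2, -0.053 without TBI2 and -0.24 without TBI1.

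Ipo11, a receptor that imports a ubiquitin-conjugating enzyme, had the smallest p of all members. It lies on the minus strand of chromosome 13 from 106794439 to 106936958 (ENSMUSG00000042590.16). Its level was 70.1, 66.1 and 68.9 CPM in sham and 61.8, 58.8 and 53.4 CPM in TBI. Every TBI library was below every sham library, and Sham2 was the lowest of sham here, against its usual place. The mean was 68.4 ± 2.04 CPM in sham and 58.0 ± 4.27 CPM after TBI (SD, n = 3 each). Ipo11 had a log2 fold change of -0.24 (standard error 0.109, 95% interval -0.50 to 0.023), with an unadjusted p of 0.0677 and an adjusted p of 0.982 from edgeR's test. Tnpo3, which imports SR splicing factors, lies on the minus strand of chromosome 6 from 29540827 to 29609887 (ENSMUSG00000012535.14). It had 90.3, 97.6 and 89.9 CPM in sham and 88.2, 82.5 and 79.0 CPM in TBI. The groups were apart only narrowly, at TBI1 and Sham3, and the log2 fold change was -0.15 (standard error 0.105, adjusted p 0.982 from edgeR's test). Ipo11 stayed between -0.29 and -0.19 and Tnpo3 between -0.20 and -0.11 when single libraries were left out.

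The promoters of these members are shown because the members were lower in every TBI library. The RefSeq promoter table for GRCm38.p6 held 43 promoters of 33 of the 42 members, each 300 bases long around a transcription start, and had no entry for Kpna3. Both strands were searched for the CCAAT box (CCAAT), the GC box (GGGCGG), the TATA box (TATAAA) and the core of ETS sites (CCGGAA), and matches on either strand are in capitals. The Ipo11 promoter held 1 CCAAT box, read on the opposite strand, and the Tnpo3 promoter 2 ETS cores, both on the opposite strand.
Ipo11, chr13:106936909-106937208, minus strand: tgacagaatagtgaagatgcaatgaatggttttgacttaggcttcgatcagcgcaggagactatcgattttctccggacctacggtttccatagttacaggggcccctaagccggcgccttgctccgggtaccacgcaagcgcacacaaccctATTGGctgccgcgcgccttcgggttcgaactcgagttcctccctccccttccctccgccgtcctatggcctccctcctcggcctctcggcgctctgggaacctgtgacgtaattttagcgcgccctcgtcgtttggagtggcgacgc
Tnpo3, chr6:29609800-29610099, minus strand: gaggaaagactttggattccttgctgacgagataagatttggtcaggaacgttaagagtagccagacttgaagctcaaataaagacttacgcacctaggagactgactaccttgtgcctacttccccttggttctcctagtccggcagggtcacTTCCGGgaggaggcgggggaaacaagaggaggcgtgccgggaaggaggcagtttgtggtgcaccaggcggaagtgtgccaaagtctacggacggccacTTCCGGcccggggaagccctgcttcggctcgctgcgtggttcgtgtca

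A GC box occurred in 27 of the 43 member promoters (62.8%) and in 35.7% of all 32851 promoters in the table. Some members had overlapping promoters, so that the same match could count more than once. By gene, 24 of 33 members had a GC box. The ETS core occurred in 23.3% and 14.9%, the CCAAT box in 39.5% and 37.4%, and the TATA box in 6.98% and 13.6%. The median GC content was 60% in the member promoters and 52.7% in all promoters, and the median number of CpG pairs was 26 and 7. The share over all promoters is therefore not matched for GC content. A match is a description of the letters and not a bound site.

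Ipo5, which imports ribosomal proteins and histones, had the largest negative fold change and rested on a single library. It had 164, 251 and 150 CPM in sham and 159, 152 and 143 CPM in TBI. Only Sham2 was high, and the other 5 libraries lay between 143 and 164 CPM. Its log2 fold change was -0.31 (95% interval -0.80 to 0.18, adjusted p 0.982 from edgeR's test), and without Sham2 it was -0.053. Ipo9, an importer of histones and actin, had the smallest p among the higher import receptors, with 121, 123 and 120 CPM in sham and 123, 145 and 124 CPM in TBI. TBI2 was the high library, and the log2 fold change was 0.11 (95% interval -0.16 to 0.37), and 0.018 without TBI2. Ipo8 was nearly level, with 53.3 ± 3.51 CPM in sham and 53.1 ± 2.54 CPM after TBI (SD, n = 3 each).

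The remaining receptors all had intervals within 1.5-fold either way. They include Tnpo1 and Tnpo2, which import RNA-binding proteins of the hnRNP type, Ipo7 and Ipo4, Ipo13, which also exports, and Ranbp6, a relative of Ipo5. Tnpo2 had 134 ± 7.68 CPM in sham and 127 ± 5.35 CPM in TBI, and Ipo13 had 85.6 ± 8.78 CPM and 88.5 ± 7.12 CPM (SD, n = 3 each). Ipo7 had 192 ± 16.7 CPM and 176 ± 13.9 CPM, and Tnpo1 had 90.1 ± 15.3 CPM and 86.3 ± 5.78 CPM. In Ranbp6 the sham libraries lay between 60.6 and 61.3 CPM, while TBI had 45.1 CPM in TBI1 and 64.7 and 68.3 CPM in TBI2 and TBI3. Ipo4 is uncertain, because 55.3% of its exonic bases are shared with the annotated gene Gm49378 on the same strand.

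**Figure D3:**
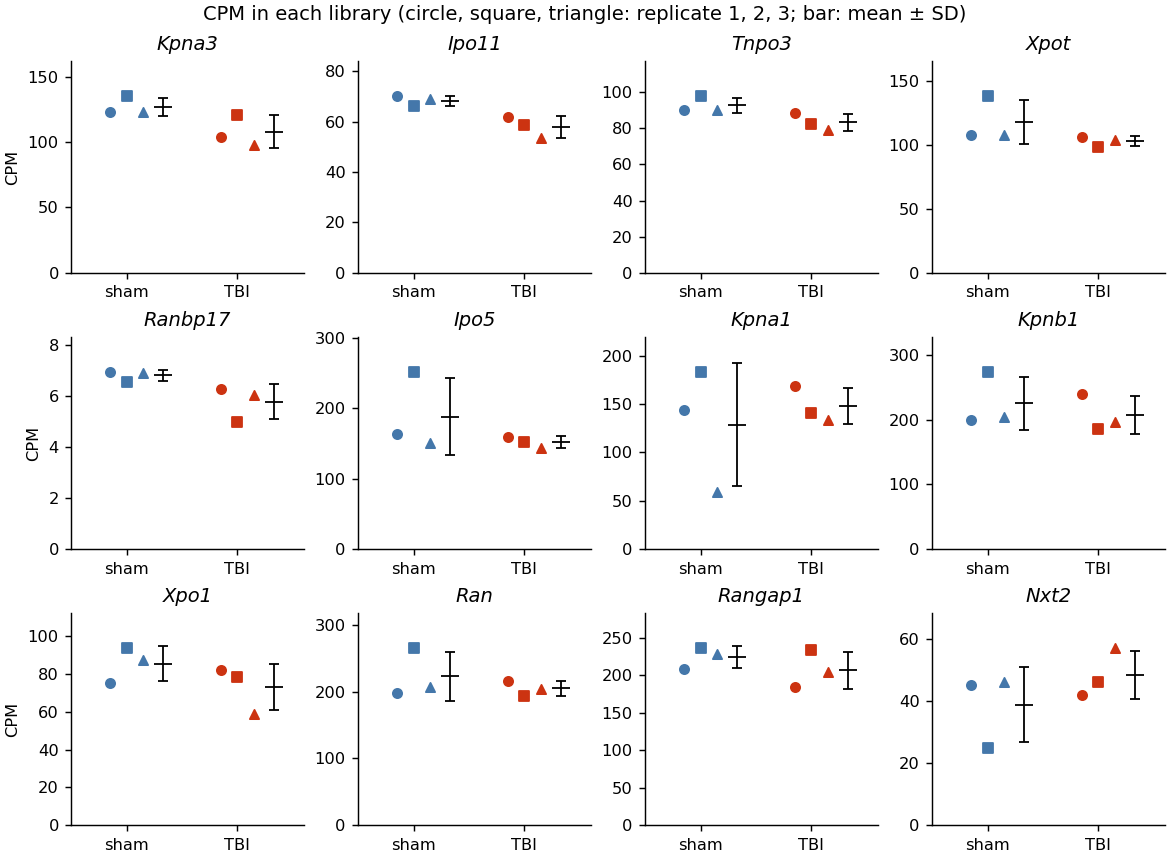
CPM (vertical axis, from 0) in each library for 12 members, with sham in blue, TBI in red and the replicate number as circle, square and triangle. Bars give the mean and SD of 3 mice, and the sham square (Sham2) is the highest point for Ipo5 (251 CPM), Kpnb1 (273 CPM) and Ran (265 CPM).

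Exportins carry proteins and structured RNAs out of the nucleus together with Ran-GTP. All 8 were tested, 1 above and 7 below sham in the mean, and none reached an unadjusted p under 0.05. Together they had 494 ± 50.7 CPM in sham and 458 ± 16.8 CPM after TBI (SD, n = 3 each). Xpot, the exporter of tRNA, was the most abundant for its length, with 18.3 CPM per kb, and lies on the minus strand of chromosome 10 from 121587380 to 121626332 (ENSMUSG00000034667.8). Its level was 108, 138 and 108 CPM in sham and 106, 98.5 and 104 CPM in TBI. The TBI libraries lay just under the lower sham libraries, and Sham2 stood far above. The log2 fold change was -0.20 (standard error 0.133, adjusted p 0.982 from edgeR's test), and it was -0.077 without Sham2. Of the 50-base stretches of Xpot, 13.7% also occur in the pseudogene Gm7389, which held 2 to 30 counts per library. Ranbp17, a relative of Xpo7 on the minus strand of chromosome 11 from 33211795 to 33513746 (ENSMUSG00000040594.19), had the lowest level of the tested exportins. It had 6.94, 6.58 and 6.93 CPM in sham and 6.30, 4.99 and 6.07 CPM in TBI. TBI1 lay just under Sham2, and TBI2 was the low library. The difference in log2 was -0.24 (standard error 0.199, adjusted p 0.982 from edgeR's test), and it was -0.15 without TBI2.

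The promoters of both exportins are shown for the same reason, with 1 GC box in Xpot, on the opposite strand, and 2 in Ranbp17, 1 on each strand.
Xpot, chr10:121626283-121626582, minus strand: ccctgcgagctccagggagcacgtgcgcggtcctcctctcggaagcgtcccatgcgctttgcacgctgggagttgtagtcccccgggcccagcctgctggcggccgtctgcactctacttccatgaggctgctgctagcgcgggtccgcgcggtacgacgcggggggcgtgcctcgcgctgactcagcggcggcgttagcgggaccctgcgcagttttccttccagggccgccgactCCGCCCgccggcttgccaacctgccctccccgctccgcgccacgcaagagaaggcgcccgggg
Ranbp17, chr11:33513704-33514003, minus strand: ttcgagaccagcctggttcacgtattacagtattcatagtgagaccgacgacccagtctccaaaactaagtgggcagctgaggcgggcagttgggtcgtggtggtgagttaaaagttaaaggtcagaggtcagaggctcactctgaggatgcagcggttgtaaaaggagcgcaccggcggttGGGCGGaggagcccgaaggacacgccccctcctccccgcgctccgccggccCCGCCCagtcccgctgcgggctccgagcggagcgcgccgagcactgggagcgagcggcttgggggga

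Xpo1, the exporter of proteins with leucine-rich export signals, had 75.5, 93.6 and 87.6 CPM in sham and 82.1, 78.6 and 59.0 CPM in TBI. The groups overlapped through Sham1, and TBI3 was the low library. For Xpo1 the log2 fold change was -0.22 (95% interval -0.62 to 0.17), and it was -0.095 without TBI3. Cse1l, which returns importin alpha to the cytoplasm, had 71.5, 86.6 and 76.1 CPM in sham and 69.5, 81.4 and 81.0 CPM in TBI. Its log2 fold change was -0.014 (95% interval -0.32 to 0.29), so that a change of 1.5-fold lay outside the interval. Xpo7 and Xpo6, the latter an exporter of actin, were at 0.994 and 0.974 times sham. Xpo5, the exporter of precursor miRNAs, had 45.5 ± 8.69 CPM in sham and 39.0 ± 5.16 CPM after TBI (SD, n = 3 each), with the highest value, 55.5 CPM, in Sham2. Xpo4 was the only exportin with a positive log2 fold change, 0.12 (95% interval -0.32 to 0.56), with 14.9, 20.3 and 18.4 CPM in sham and 16.8, 19.4 and 22.1 CPM in TBI. Single libraries moved it to 0.012 (without Sham1), 0.013 (without TBI3) and 0.22 (without Sham2).

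The Ran cycle supplies the gradient that all these receptors read. All 8 members were tested, 2 above and 6 below sham in the mean, and none reached an unadjusted p under 0.05, and the libraries of the groups overlapped in every one. Ran was the most abundant of all members for its length, with 80.8 CPM per kb. It had 198, 265 and 207 CPM in sham and 216, 194 and 204 CPM in TBI. Sham2 was the high library, and the log2 fold change of -0.13 (95% interval -0.46 to 0.21) was 0.014 without Sham2. Rangap1, the activator of GTP hydrolysis, came next with 44.3 CPM per kb. It had 208, 236 and 228 CPM in sham and 184, 234 and 204 CPM in TBI, a log2 fold change of -0.11 (95% interval -0.41 to 0.19) that was -0.033 without TBI1 and -0.21 without TBI2. Ranbp1, which helps to free Ran-GTP from export complexes, followed with 40.9 CPM per kb. The levels of Ranbp1 and Ran carry some uncertainty, since Ranbp1 shares 16.9% of its exonic bases with Gm49776 on the same strand, and 14.1% of the 50-base stretches of Ran occur in the pseudogene Gm13461.

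Rcc1, the nuclear exchange factor, was low beside its partners with 3.65 CPM per kb. It had 10.6, 16.1 and 12.4 CPM in sham and 17.9, 14.5 and 12.9 CPM in TBI. TBI1 was the highest library, and the log2 fold change of 0.22 (95% interval -0.32 to 0.75) was 0.077 without TBI1 and 0.39 without Sham2. Nutf2, which carries Ran-GDP back into the nucleus, had 34.1, 29.8 and 27.7 CPM in sham and 34.5, 17.7 and 30.2 CPM in TBI. TBI2 was the low library, and the log2 fold change of -0.15 (95% interval -0.77 to 0.46) was 0.077 without TBI2. Nutf2 is uncertain as well, since 38% of its stretches of 50 bases are found in Nutf2-ps1, which held 208 to 332 counts per library.

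Of the other Ran-binding members, Ranbp2, a large nucleoporin on the cytoplasmic filaments of the pore, had 126 ± 5.84 CPM in sham and 120 ± 18.7 CPM after TBI (SD, n = 3 each). Ranbp3, a cofactor of Xpo1, had 75.9 ± 6.46 CPM and 73.6 ± 2.24 CPM. Rangrf, which binds Ran and is also known for the trafficking of a cardiac sodium channel, had 7.38, 8.85 and 8.18 CPM in sham and 8.38, 8.60 and 11.7 CPM in TBI. The high library was TBI3, and without it the log2 fold change went from 0.23 to 0.056. Its exons overlap those of Slc25a35 on the opposite strand over 90.7% of their bases, and the strandedness of the counting is not given in the sources used here, so that reads of both genes cannot be told apart. Ranbp9 and Ranbp10, scaffolds of an E3 ubiquitin ligase that were named for binding Ran, had log2 fold changes of -0.081 and -0.089, both with intervals within 1.5-fold. Ranbp9, the more abundant of the pair, had 56.5, 69.1 and 63.1 CPM in sham and 63.4, 60.7 and 54.1 CPM in TBI, and the groups overlapped. Its log2 fold change was -0.0092 without Sham2, -0.023 without TBI3 and -0.15 without Sham1.

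**Figure D4:**
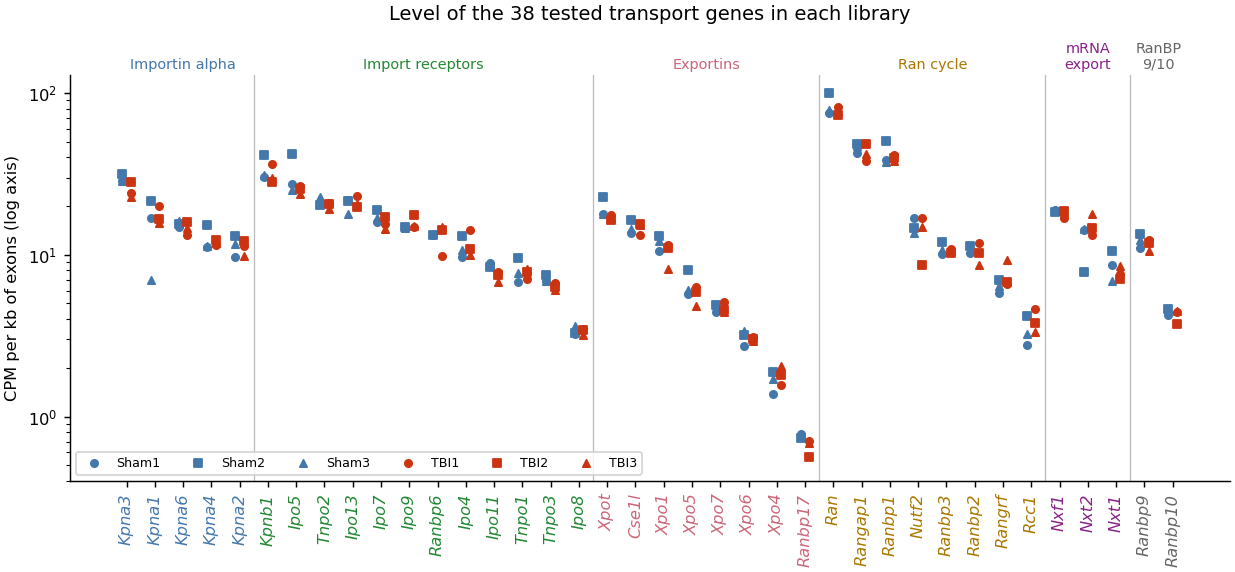
CPM per kb of exons (log axis) of the 38 tested members in each library, grouped by role and ordered by mean level within a role, with sham in blue, TBI in red and the replicate number as the marker shape. Ran (80.8 CPM per kb) and Ranbp17 (0.709 CPM per kb) are the ends of the range, and low single points are seen for Kpna1 in Sham3 (59.4 CPM before division by length), Nxt2 in Sham2 (24.7 CPM) and Nutf2 in TBI2 (17.7 CPM).

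Messenger RNA leaves the nucleus without Ran, through the Nxf1 and Nxt1 heterodimer. Of the 6 members, 3 were tested, 1 above and 2 below sham in the mean, and none reached an unadjusted p under 0.05. Nxf1 had the smallest spread between mice of all tested members, with 83.6, 81.6 and 83.2 CPM in sham and 74.5, 83.0 and 81.8 CPM in TBI. Its highest library was 1.12 times its lowest, and the log2 fold change was -0.054 (95% interval -0.30 to 0.19), and it ran from -0.089 without TBI2 to -0.0065 without TBI1. Nxt1 had 9.67 ± 2.03 CPM in sham and 8.67 ± 0.808 CPM after TBI (SD, n = 3 each). Nxt2, its X-linked relative, had the largest positive fold change, with 45.2, 24.7 and 46.1 CPM in sham and 42.0, 46.2 and 56.9 CPM in TBI. Sham2 was the low library here, and the log2 fold change of 0.32 (95% interval -0.30 to 0.95, adjusted p 0.982 from edgeR's test) was 0.083 without Sham2. Nxf2, Nxf3 and Nxf7 were not tested. Nxf2 and Nxf3 had at most 5 counts in any library, and Nxf7 had 72 counts in TBI1, the library with the striatal markers, and 0 to 9 elsewhere.

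The order of levels within each role was much alike in both groups, although some neighbors changed places. Among import receptors Ipo13 stood above Tnpo2, Ipo9 above Ipo7 and Tnpo1 above Ipo11 in the TBI means, the reverse of sham. In the importin alpha family Kpna3 held 35.3% of the summed level per length in sham and 31.2% in TBI, followed by Kpna6 with 18.7% and 18.3% and Kpna1 with 17.5% and 21.8%. Kpna1 was above Kpna6 in every library except Sham3, and the order of their sham means rested on that library. Among exportins Xpot held 31% and 29.5%, Cse1l 23.5% and 25.4%, and Xpo1 18.9% and 17.6%. Ran held 38.4% and 37.6% of the Ran cycle, Rangap1 21.1% and 20.8%, and Ranbp1 19.2% and 19.3%. Rangap1 was above Ranbp1 in 4 of the 6 libraries, with Sham2 and TBI1 as the exceptions.

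Further genes of the pathway were taken from lists of partners. Of 26 mRNA export partners, 24 were tested, and 0 reached an unadjusted p under 0.05 in either direction. Their median log2 fold change was -0.034, which was 0.046 without Sham2 and 0.016 without TBI2, and the smallest p belonged to Eny2, a subunit of the export complex at the pore. Eny2 had 66.5 ± 5.01 CPM in sham and 55.6 ± 3.06 CPM after TBI (SD, n = 3 each), and its log2 fold change was -0.26 with an unadjusted p of 0.0585 from edgeR's test. All 15 accessory genes, among them the SUMO enzymes that act on Rangap1, were tested, with 0 under 0.05 and a median of -0.050. That median was 0.040 without Sham2, 0.0039 without TBI2 and 0.014 without TBI3. The smallest p, 0.155, was that of Nmd3, an export adaptor of the large ribosomal subunit. The 12 spindle factors that Ran regulates in mitosis had a median of 0.24, 8 higher and 4 lower, again with 0 under 0.05. Of the 8, Tpx2, Tacc3, Hmmr, Dlgap5 and Nusap1 were highest in TBI1, the library with the striatal markers, as with 5.29 CPM for Tpx2 against 2.37 to 2.76 CPM elsewhere. Without TBI1, 4 of 11 were higher and the median was -0.13. The 7 tested markers of proliferating cells were all higher in TBI, 1 of them (Birc5) at an unadjusted p under 0.05 in edgeR's test, and without TBI1 2 of 7 were higher. Their part in the spindle values was not tested. Among the spindle factors the smallest p, 0.0627 from edgeR's test, was that of Rae1, with a log2 fold change of -0.44.

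The nucleoporins line the channel that the importins and exportins pass. Marker lists aside, they held the single gene of these pathway lists at an unadjusted p under 0.05. Of 29 listed, 28 were tested, of which 10 had a positive and 18 a negative fold change, with a median of -0.095, which was 0.0039 without Sham2. The gene was Nup62, which had 9.53 ± 0.887 CPM in sham and 32.0 ± 2.45 CPM after TBI (SD, n = 3 each), and its log2 fold change was 1.75 (adjusted p 0.226, edgeR). DESeq2's defaults gave 1.74 with an adjusted p of 5.07e-16, so that Nup62 was called by DESeq2 and not by edgeR. Higher genes at an unadjusted p under 0.05 made up 2.16% of all genes tested. The transport factors that bind Nup62 had much smaller values, with a log2 fold change of -0.12 for Kpnb1 and -0.15 for Nutf2.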

How the data were processed

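Hippocampal RNA of 3 sham and 3 TBI mice was sequenced, and groups were taken from the sample labels. The authors aligned the reads with HISAT2 to GRCm38, quantified them with StringTie and deposited estimated counts for each gene, which are whole and not normalized. Versions, annotation release, strandedness and how coverage was turned into counts are not given in the sources used here. The value 4 occurred 5109 times and the value 3 occurred 2325 times, so the values were not taken as single reads, and no counting interval was computed. GENCODE vM21 gave symbols for 52403 genes and none for 147.

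Genes kept by filterByExpr (18795) were scaled by TMM, with factors from 0.97 to 1.02, and tested across all genes with edgeR 4.0.16 in R 4.3.3 by its quasi-likelihood test with Benjamini-Hochberg adjustment, which was checked on simulated data. Standard errors were derived from the F statistic. The 95% intervals used edgeR's degrees of freedom. CPM per kb was the CPM divided by the summed length of annotated exons. The spread between mice was taken from log2(CPM + 0.5). DESeq2 1.42.0 was an alternative, and further alternatives were other scalings, filters, single libraries left out and the replicate number as a block. Members, lists and tests were chosen with earlier results of these data known. Values in every library are given for the 5 members with the smallest p in each direction, for members whose groups did not overlap, for the most abundant member of each role and for Kpnb1, Xpo1, Ran, Rangap1, Rcc1, Nutf2, Cse1l and Nxf1 as the core of nuclear transport, and Kpna1 was added after its values were seen. Of the listed pathway genes, Nup42, Nup58 and Ddx39a were not matched by symbol.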

Additional observations from a re-analysis of the deposited data

How the results depend on the processing

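The number of members called stayed at 0 in every alternative run, which were 7 changes of scaling, filter, tool or design, the rule without its fold threshold, every single library omitted with edgeR and with DESeq2's defaults, and Sham2 and TBI1 left out together. Members at an unadjusted p under 0.05 numbered 0 to 1 with single libraries left out, 1 being Kpna3 without TBI2, and 1 (Ipo11) without Sham2 and TBI1, an alternative chosen after seeing the data. The median log2 fold change of the members ran from -0.12 to -0.013 with single libraries left out. Members whose groups did not overlap numbered 3 with library totals only, and 6 with RLE size factors, with at least 1 count in any library and with at least 10 counts in every library, each time 5 below and 1 above sham, and the cause was not tested. Over all genes these settings gave 10% with library totals, 10.3% with RLE, 8.13% with at least 1 count and 10.4% with at least 10 counts. Members below sham numbered 8 without Sham1 (9.29% of all genes), 7 without Sham2 (10.4%), 7 without Sham3 (10.4%), 6 without TBI1 (11.3%), 8 without TBI2 (11.1%) and 5 without TBI3 (8.95%). Members above numbered 4 without Sham2 (10.1%), 3 without TBI1 (11.4%) and 0 without any of the others (8.54% to 10.4%). Without both Sham2 and TBI1, 8 lay below and 9 above (18.6% and 18.5%). Of the named members, 6 changed sign, and none of these was called in any fit. The log2 fold change of Cse1l was 0.066 without Sham2, 0.057 without TBI1 and 0.14 without both, and that of Rangap1 was 0.0067 without both and otherwise as low as -0.21 (without TBI2). Kpnb1 ran from -0.24 (without TBI1) to 0.037 (without Sham2), Ran from -0.20 (without Sham1) to 0.014 (without Sham2), Nutf2 from -0.37 (without Sham2 and TBI1) to 0.077 (without TBI2), and Kpna1 from -0.15 (without Sham3) to 0.55 (without Sham2). With the replicate number as a block, 0 members were called or reached an unadjusted p under 0.05, with a median of -0.078. Deviations of same-numbered libraries correlated by -0.13, -0.068 and 0.20, and only those of number 3 correlated best with each other. These correlations cannot decide whether mice were paired. The study's methods describe a random division of the mice and name no pairs. For 3 against 3 mice the smallest two-sided p of an exact permutation test is 0.1. Leaving libraries out of the pathway lists was chosen after seeing the data.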
